A study of Mus musculus with 12 samples.

Results

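Fc gamma receptors are the cell surface receptors with which macrophages bind the constant part of IgG. The 5 genes described are Fcgr1, Fcgr3 and Fcgr4, which encode the activating receptors of the mouse, Fcgr2b, which encodes the inhibitory receptor, and Fcer1g, which encodes the signalling chain that the activating receptors share. They were chosen by symbol from a table of 24728 genes, and all 5 passed the filter on low counts. RNA was sequenced from 12 libraries of mouse bone-marrow derived macrophages (BMDMs), sorted as dTomato+ cells from ex vivo assays, in 4 groups of 3. By their labels, these were Full Tumor and Tumor without Myelin, which are called the groups with tumor material here, and Control and Myelin Alone. An mn number (957, 958 or 016), whose meaning the labels leave out, occurs once in every group. The strain and age of the mice, what drives dTomato, the time of exposure, what the Control cells received and the tumor model behind these libraries are likewise not given in the sources used here. The labels name no separate animals or cultures, so the p-values below measure the spread between these libraries, which may be technical.

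As background, an activating Fc gamma receptor that is cross-linked by IgG-coated material passes its signal through the ITAM of Fcer1g to Src family kinases and Syk, which starts phagocytosis, the oxidative burst and cytokine release. Fcgr2b carries an ITIM instead and recruits the lipid phosphatase encoded by Inpp5d, which dampens the same pathway. On macrophages the balance of the activating and inhibitory receptors is known to set the response to a given amount of antibody, and Fcgr1 and Fcgr4 are known to be raised by interferon gamma.

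The main pattern was a split between the receptors, though differences between receptors were not tested. The ratios in this paragraph are from edgeR with the mn number as a block. Fcgr1 and Fcgr4 were higher in the groups that held tumor material, 2.98-fold for Fcgr1 and 1.66-fold for Fcgr4, with ratios of 1.04 and 0.956 for myelin. Fcgr2b was 1.33-fold higher in the groups that held myelin, with a ratio of 0.994 for tumor material. Fcgr3 and Fcer1g, the most abundant of the 5, had ratios of 1.11 and 1.06 for tumor material, and neither passed the test. For Fcgr4 the calls were made with the mn number as a block and not with group only. For both tumor groups against both others, Fcgr1 was called by edgeR with the block and by DESeq2 with or without it. For both groups with myelin against both without, Fcgr2b was called by DESeq2 with the block and not by edgeR.

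Libraries totalled 17071673 to 21689624 counts, and the 5 genes together took 0.238% to 0.352% of them. Values are given as CPM, counts scaled to the library total after TMM normalisation. Markers fixed for macrophages (11 genes, among them Adgre1, Csf1r and Cd68) were detected in every library, with Cd68 at 3169 to 3996 CPM. Of other cells that carry Fc receptors, the B cell marker Ms4a1 was at 0 in 11 libraries and the dendritic cell marker Flt3 at 0 in 10, while Ighm reached 47.9 CPM and the mast cell marker Kit 10.04 CPM. The fit with the mn number as a block, used beside the fit with group only, asks for differences within a number. The same-numbered libraries deviated together in 18 of 18 pairs. Effects are given for single pairs of groups and pooled, the latter as both tumor groups against both groups without tumor material (pooled tumor effect) or both myelin-containing groups against both without (pooled myelin effect). In these bulk samples, fewer cells that express a gene and less RNA per cell cannot be told apart.

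Scaled by exon length, the order of the levels was the same in all 4 groups for the extremes. Fcer1g had the highest level, with a mean of 1627 CPM per kb in Control, 1668 in Myelin Alone, 1772 in Tumor without Myelin and 1720 in Full Tumor. Fcgr3 followed at 790 CPM per kb in Control, 746 in Myelin Alone, 857 in Tumor without Myelin and 849 in Full Tumor. Its 12 libraries lay below all 12 of Fcer1g and above those of the other receptors. Fcgr4 averaged 40.4 and Fcgr1 24.4 CPM per kb in Control, where their ranges overlapped (28.2 to 55.2 against 14.6 to 36.7), so their order does not exceed the spread. In Tumor without Myelin the order of their means was the opposite, with 81.6 for Fcgr1 and 68.0 for Fcgr4, and the ranges again overlapped. Fcgr2b was lowest, from 11.5 CPM per kb in Control to 15.9 in Myelin Alone. Lengths were those of the exons of coding transcripts. With the exons of all transcripts the Fcgr2b levels were 7.57 in Control and 10.5 in Myelin Alone, still the lowest.

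**Figure D1:**
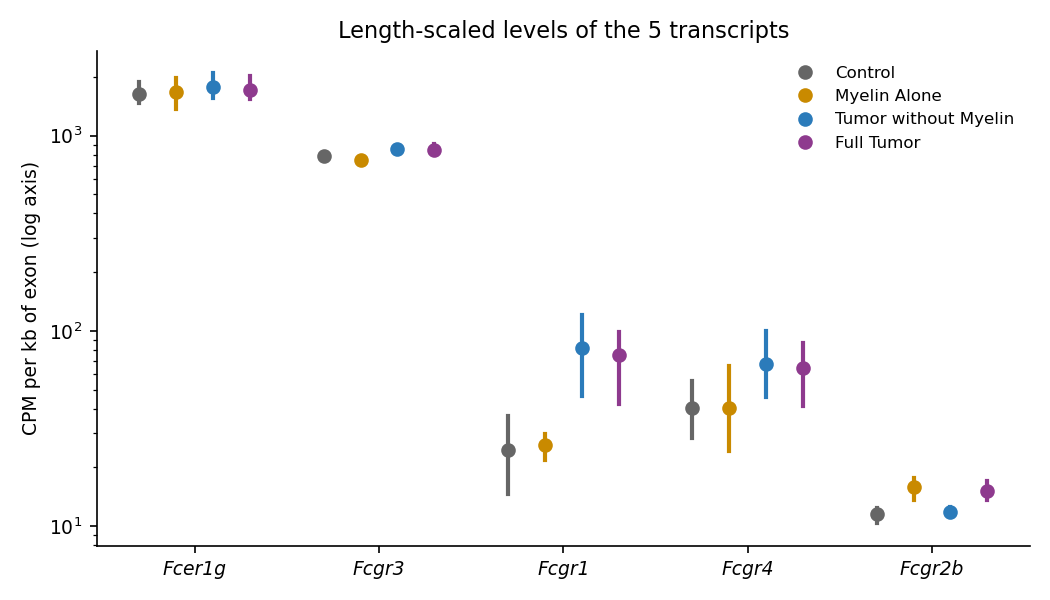
Level of each transcript in CPM per kb of exon of coding transcripts, on a log axis, by group (colour); points are the means of 3 libraries and bars run from the lowest to the highest library. Fcer1g and Fcgr3 lie above the other 3 genes in all 4 groups, and Fcgr1 and Fcgr4 overlap.

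Fcgr1 (ENSMUSG00000015947, chromosome 3, 96282909 to 96293969 on mm10, minus strand) encodes the high-affinity IgG receptor, the member that binds monomeric IgG. In Control it was at 56.6, 95.1 and 37.7 CPM in mn numbers 957, 958 and 016. Myelin Alone gave 56.5, 77.1 and 68.9 CPM in the same order. With tumor material the values were 203, 311 and 121 CPM in Tumor without Myelin and 217, 254 and 109.6 CPM in Full Tumor. All 6 libraries with tumor material lay above all 6 without it, which held for 0.805% of the 13414 tested genes in either direction, and number 016 was the lowest of each tumor group. Group means were 63.1 ± 29.2 CPM in Control, 67.5 ± 10.4 in Myelin Alone, 211 ± 95.6 in Tumor without Myelin and 194 ± 75.2 in Full Tumor (SD, n = 3).

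The pooled tumor effect on Fcgr1 was a log2 fold change of 1.63 ± 0.29 (SE) with group only, which missed the threshold of 0.05 after Benjamini-Hochberg adjustment (edgeR adjusted p = 0.0827). With group only it passed in 2 of 12 fits that each left out 1 library, and missed in the rest. The 2 were those without the Full Tumor or the Tumor without Myelin library of 016 (edgeR adjusted p = 0.0307 and 0.0325). With group only it also passed without all libraries of 016 (0.00395) and without the filter on low counts (0.00753). It missed without all libraries of 957 or of 958, and with library totals in place of TMM. With the mn number as a block it was 1.58 ± 0.16, a 2.98-fold rise with a 95% interval of 2.34 to 3.80 (edgeR adjusted p = 0.000662). Within the numbers the difference was 1.89 in 957, 1.71 in 958 and 1.17 in 016 on the log2 CPM scale, so the direction held in 3 of 3. The call with the block was made in 12 of 12 fits that each left out 1 library and was lost when the 4 libraries of 957 were left out (log2 fold change 1.41, edgeR adjusted p = 0.0519). With the block, 2.25% of all tested genes were called for the pooled tumor effect, and 2 of the 5 Fc receptor genes were, both higher. With group only, 0.0745% of genes were called and 0 of the 5, with 2 of the 5 at an unadjusted p under 0.05 in edgeR and 1 of the 5, Fcgr1, called by DESeq2 (adjusted p = 2.44e-05). Over all genes with group only, 775 of 13414 had an unadjusted p under 0.05 in edgeR, and DESeq2 called 171 of 16540.

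The single comparisons of Fcgr1 gave similar sizes. Against Control, Tumor without Myelin was higher by a log2 fold change of 1.74 ± 0.22 in the blocked fit (edgeR adjusted p = 0.0068, against a background of 0.745% of genes called), and Full Tumor by 1.64 ± 0.22 (edgeR adjusted p = 0.00663, background 0.813%). In each comparison 2 of the 5 members were called, both higher. Both Fcgr1 calls were lost without the Control library of 957 (edgeR adjusted p = 0.0622 and 0.0596), without all libraries of 957 (0.201 and 0.202) and without all of 958 (0.120 and 0.140). Full Tumor exceeded Myelin Alone by 1.41 ± 0.22 with the block (edgeR adjusted p = 0.0435, 1 of 5 members called against a background of 0.112%). That call stayed in only 2 of 12 fits that left out 1 library, those without the Control or the Myelin Alone library of 016, and was lost in the other 10 (edgeR adjusted p = 0.0544 to 0.245) and with library totals in place of TMM (0.0591). These comparisons share the Control or the Full Tumor libraries and are not independent of each other. With group only, all 3 missed the threshold in edgeR (adjusted p = 0.446, 0.596 and 1.00), where the background was 0%. DESeq2 with group only called Fcgr1 in both comparisons with Control (adjusted p = 0.0108 and 0.0381), where it called 55 of 13666 and 46 of 15101 genes. For Full Tumor against Myelin Alone, DESeq2 with group only did not call Fcgr1 (adjusted p = 0.106) and called 18 of 11765 genes.

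No test of myelin on Fcgr1 passed. The pooled myelin effect was a log2 fold change of 0.06 in the blocked fit, with a 95% interval of −0.28 to 0.40 (edgeR adjusted p = 0.982). The numbers went different ways: Myelin Alone was 0.87 above Control in 016, 0.30 below it in 958 and level in 957, on the log2 CPM scale. The difference between the tumor effect with and without myelin, which is the interaction, was −0.33 with an interval of −1.01 to 0.35 (edgeR adjusted p = 1.00 with the block). For the interaction 0% of genes were called, with 0 of the 5 members at an unadjusted p under 0.05 in edgeR and 0 called by DESeq2. With the block, 393 of the 13414 tested genes had an unadjusted p under 0.05 in edgeR, and DESeq2 called 74 of 24728.

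**Figure D2:**
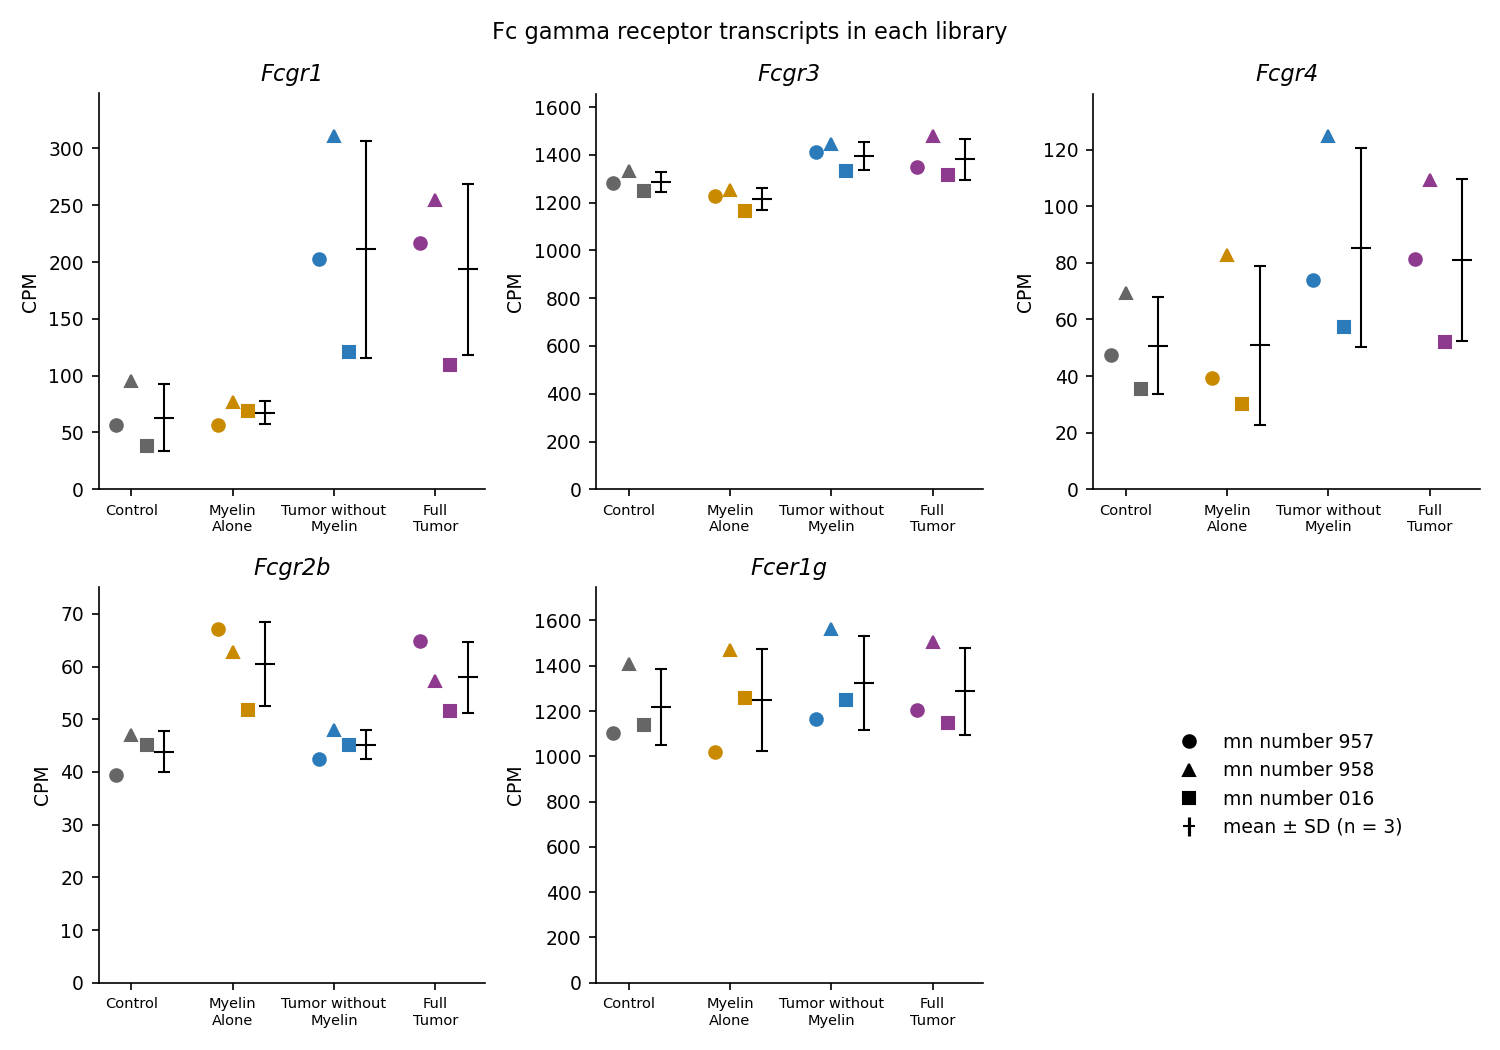
CPM of each gene in each library (points, with the shape giving the mn number and the colour the group) and the mean ± SD of 3 libraries (black), on axes from 0. For Fcgr1 the 6 libraries with tumor material lie above the other 6, and for Fcgr2b the 6 libraries with myelin do; the groups overlap for Fcgr4 and Fcer1g.

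Fcgr4 (ENSMUSG00000059089, chromosome 1, 171018920 to 171029761, plus strand) encodes an activating receptor of intermediate affinity found on monocytes, macrophages and neutrophils. Its Control values were 47.4, 69.3 and 35.5 CPM in 957, 958 and 016. Myelin Alone had 39.4, 82.7 and 30.3 CPM, Tumor without Myelin 74.0, 125 and 57.3 CPM, and Full Tumor 81.3, 109 and 52.0 CPM. All pairs of groups overlapped, because 958 was the highest and 016 the lowest number in every group, yet within each number both tumor groups lay above both groups without tumor material. Means were 50.7 ± 17.2 CPM in Control, 50.8 ± 28.0 in Myelin Alone, 85.4 ± 35.2 in Tumor without Myelin and 80.9 ± 28.7 in Full Tumor (SD, n = 3).

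With the block, the pooled tumor effect on Fcgr4 was 0.73 ± 0.09 on the log2 scale, a 1.66-fold rise with an interval of 1.44 to 1.92 (edgeR adjusted p = 0.00246). With group only it was 0.71 ± 0.30 (edgeR adjusted p = 0.754). The within-number differences were 0.84, 0.63 and 0.73 in 957, 958 and 016. The call with the block held in 12 of 12 fits that left out 1 library and was lost without the 4 libraries of 957 (0.67, edgeR adjusted p = 0.0684). Tumor without Myelin exceeded Control by 0.73 (edgeR adjusted p = 0.0311 with the block), and the call was lost when any of the 6 libraries of either group was left out (log2 fold change 0.65 to 0.77, edgeR adjusted p = 0.0642 to 0.187). Full Tumor exceeded Control by 0.67 (edgeR adjusted p = 0.0473 with the block), a call that stayed in 1 of 12 such fits, the one without the Myelin Alone library of 958, and was lost in the other 11 (edgeR adjusted p = 0.0503 to 0.270) and with library totals in place of TMM (0.0771). Full Tumor against Myelin Alone gave 0.74 and missed the threshold (edgeR adjusted p = 0.0814 with the block), though DESeq2 with the block (adjusted p = 0.000351) and edgeR with the block and no filter (0.0230) called it. The pooled myelin effect was −0.06 with an interval of −0.27 to 0.14 (edgeR adjusted p = 0.956 with the block).

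**Figure D3:**
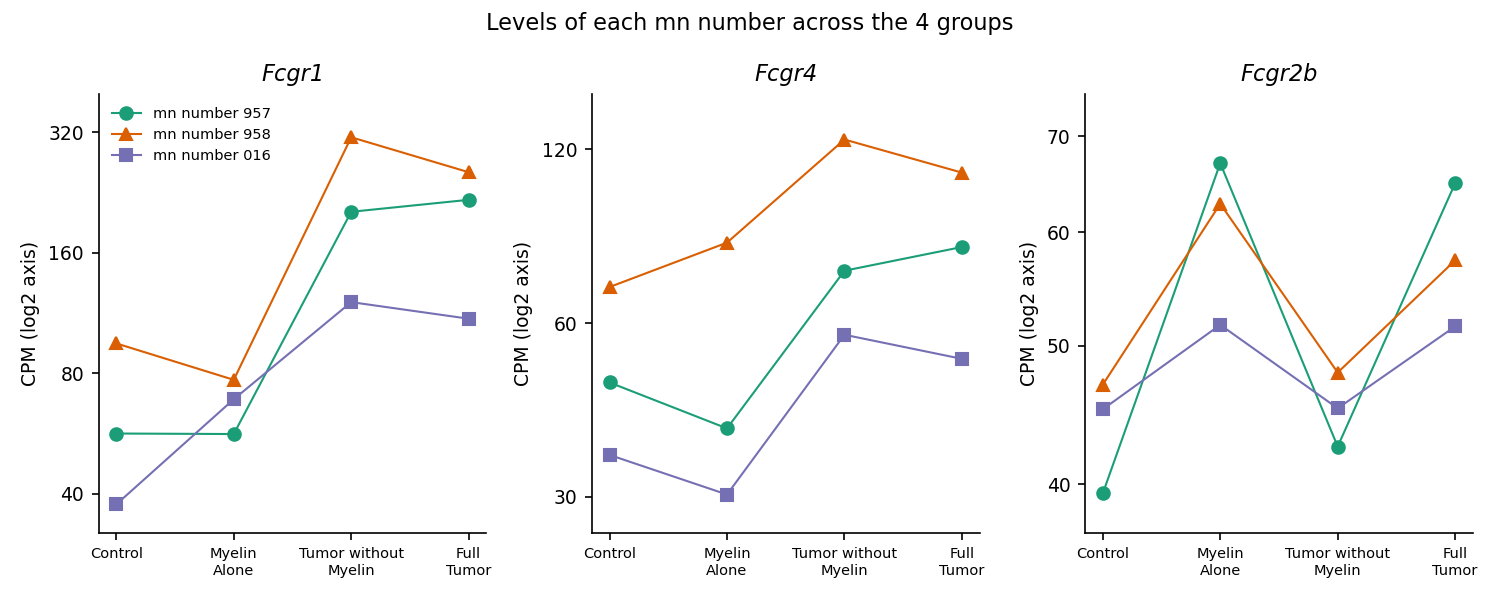
CPM of Fcgr1, Fcgr4 and Fcgr2b on log2 axes across the 4 groups, with a line joining the 4 libraries of each mn number. Within every number Fcgr1 and Fcgr4 are higher in both tumor groups than in Control and Myelin Alone, and Fcgr2b is higher in Myelin Alone than in Control and in Full Tumor than in Tumor without Myelin.

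The sequence before the gene start of Fcgr1 and Fcgr4 is shown because these are the members that rose together with tumor material. Windows run from 250 bases before to 50 bases after the RefSeq gene start (GRCm38.p6, the same assembly as mm10), and the bases printed are those before the annotated exons. Capitals mark matches to motifs searched on both strands: GAS, an element of interferon-gamma-induced promoters, as TTCNNNGAA, the core of the ISRE, an element of interferon-induced promoters, as GAAA, any 2 bases and GAAA, and the core of the site of PU.1, the myeloid factor that Spi1 encodes, as GAGGAA.
Fcgr1, chr3:96293970-96294219, minus strand: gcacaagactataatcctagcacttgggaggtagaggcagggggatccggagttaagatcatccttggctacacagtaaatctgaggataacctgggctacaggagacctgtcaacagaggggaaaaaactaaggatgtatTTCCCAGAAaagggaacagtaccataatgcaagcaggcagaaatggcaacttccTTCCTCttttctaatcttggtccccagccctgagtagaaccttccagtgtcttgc
Fcgr4, chr1:171018676-171018919, plus strand: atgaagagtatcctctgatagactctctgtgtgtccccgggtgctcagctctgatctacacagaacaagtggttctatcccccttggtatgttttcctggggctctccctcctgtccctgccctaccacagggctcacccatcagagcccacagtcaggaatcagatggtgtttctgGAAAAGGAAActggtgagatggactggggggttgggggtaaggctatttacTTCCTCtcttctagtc
The Fcgr1 window holds 1 GAS match, TTCCCAGAA, at −109 to −101 from the gene start, and 1 PU.1 core on the opposite strand at −55 to −50. The Fcgr4 window holds 1 ISRE core, GAAAAGGAAA, at −73 to −64, and 1 PU.1 core on the opposite strand at −22 to −17. The matches do not overlap each other. Of 32851 promoter windows of the same length, 8.30% hold the GAS letters, 3.44% the ISRE core and 28.3% the PU.1 core. Fcgr3 has 2 overlapping windows, which hold only the PU.1 core, and the windows of Fcgr2b and Fcer1g hold none of the 3. The RefSeq starts used for Fcgr3 and Fcgr2b lie inside the gene intervals given below, so these windows do not precede the whole interval. For Fcgr3 the bases before the starts reach up to 171059653, and the interval to 171064935. For Fcgr2b they reach 170976321, and the interval 170976547. A match describes letters and not a bound site, and no match says only that these letters are not in that window.

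Fcgr3 (ENSMUSG00000059498, chromosome 1, 171051174 to 171064935, minus strand) encodes the low-affinity activating receptor and was the most abundant receptor of the family. It was at 1283, 1332 and 1247 CPM in Control and 1229, 1255 and 1164 CPM in Myelin Alone (957, 958 and 016). In Tumor without Myelin it was at 1411, 1446 and 1331 CPM, and in Full Tumor at 1350.1, 1480 and 1317 CPM. Each tumor group lay above Myelin Alone without overlap, and each overlapped Control. Groups of 3 libraries are often apart: 8.46% of tested genes did not overlap, in either direction, between Tumor without Myelin and Myelin Alone, and 6.75% between Full Tumor and Myelin Alone. The pooled tumor effect was 0.15 ± 0.05 on the log2 scale, a ratio of 1.11 with an interval of 1.04 to 1.19, positive in 3 of 3 numbers, and it missed the threshold (edgeR adjusted p = 0.141 with the block and 0.876 with group only). The pooled myelin effect was −0.05 with an interval of −0.15 to 0.05 (edgeR adjusted p = 0.906 with the block).

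Fcgr2b (ENSMUSG00000026656, chromosome 1, 170958617 to 170976547, minus strand) encodes the only inhibitory receptor of the family. Its levels were 39.4, 47.0 and 45.1 CPM in Control and 42.5, 47.9 and 45.2 CPM in Tumor without Myelin, for 957, 958 and 016. The libraries that received myelin gave 67.0, 62.8 and 51.7 CPM in Myelin Alone and 64.9, 57.3 and 51.6 CPM in Full Tumor. All 6 libraries with myelin lay above all 6 without it, which held for 0.179% of the tested genes in either direction. Means were 43.8 ± 3.93 CPM in Control, 60.5 ± 7.93 in Myelin Alone, 45.2 ± 2.69 in Tumor without Myelin and 57.9 ± 6.70 in Full Tumor (SD, n = 3).

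The pooled myelin effect on Fcgr2b was a log2 fold change of 0.41 ± 0.10 in the blocked fit, a ratio of 1.33 with a 95% interval of 1.14 to 1.54. Across all genes it did not pass in edgeR (unadjusted p = 0.00156, adjusted p = 0.247 with the block and 1.00 with group only). With the block 0.112% of genes were called for the pooled myelin effect and 0 of the 5 members, with 1 at an unadjusted p under 0.05. Of all 13414 tested genes, 957 had such an unadjusted p. DESeq2 with the block did call Fcgr2b (adjusted p = 0.0285), where it called 0.991% of genes. The within-number differences were 0.69, 0.34 and 0.19 in 957, 958 and 016, all in the same direction and largest in 957. Without the 4 libraries of any 1 number, or without any 1 library, the effect lay between 0.26 and 0.52. Myelin Alone against Control gave 0.46 (edgeR adjusted p = 0.605 with the block, background 0.0373%), and Full Tumor against Tumor without Myelin gave 0.36 (edgeR adjusted p = 1.00 with the block, background 0%). In each of those 2 comparisons 0 of the 5 members was called by edgeR or DESeq2 and 1, Fcgr2b, had an unadjusted p under 0.05. In edgeR with the block, 810 and 520 of the 13414 tested genes had such a p, in the same order. The interaction was −0.10 with an interval of −0.54 to 0.33, and the pooled tumor effect −0.01 with an interval of −0.23 to 0.21 (edgeR adjusted p = 1.00 and 0.981 with the block).

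**Figure D4:**
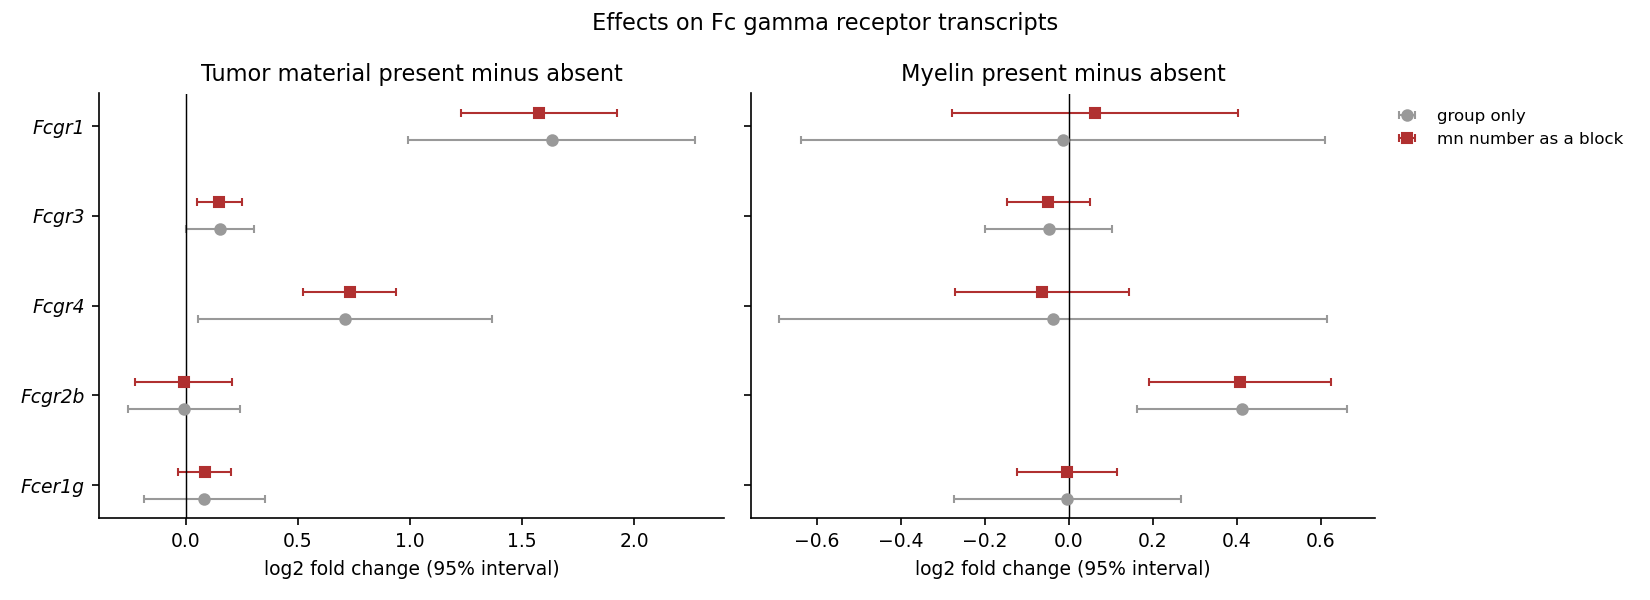
Log2 fold change with 95% interval of each gene for tumor material present minus absent (left) and myelin present minus absent (right), with group as the only term (grey) and with the mn number as a block (red). On the left the blocked intervals of Fcgr1 and Fcgr4 begin at 1.23 and 0.52, that of Fcgr3 at 0.05, and on the right only the intervals of Fcgr2b lie wholly above 0.

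Fcgr2b and Fcgr3 have nearly the same extracellular part, so reads from it can fit either gene. The longest coding GENCODE transcript of each member was compared, in 50-base stretches, with all transcripts of each other member. Of the stretches of Fcgr2b, 4.75% (166 of 3495) also occur in Fcgr3, and of those of Fcgr3 12.8% occur in Fcgr2b. No other pair of members shares one. The longest shared run, 129 bases within the coding part of both (positions 402 to 530 of the Fcgr2b transcript and 313 to 441 of the Fcgr3 transcript), is printed to show how far the transcripts are identical.
Shared run: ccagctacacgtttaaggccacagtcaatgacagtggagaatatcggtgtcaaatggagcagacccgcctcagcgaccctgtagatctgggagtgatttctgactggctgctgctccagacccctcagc
How reads with several matches were counted is not given in the sources used here, and Fcgr3 had 18.3 to 33.2 times the CPM of Fcgr2b. Reads of Fcgr3 could thus make up an unknown and possibly large part of the Fcgr2b level. This limit also holds for the pooled myelin effect on Fcgr2b, its place as the lowest member and the ratio of Fcgr3 to Fcgr2b. The mean level of Fcgr3 itself was 1216 ± 46.6 CPM in Myelin Alone and 1287 ± 42.5 in Control (SD, n = 3). Without known strand, reads of Fcgr2b cannot be told apart from those of the annotated antisense gene Gm38204 either, and those of Fcgr3 and Fcgr4 share their interval with Mir6546 and Gm26110.

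The ratio of an activating receptor to Fcgr2b in the same library brings both patterns together. Taken from CPM with no scaling for length, Fcgr1 to Fcgr2b was 0.835 to 2.02 in Control and 0.842 to 1.33 in Myelin Alone, against 2.67 to 6.50 in Tumor without Myelin and 2.12 to 4.44 in Full Tumor. The ratio of Fcgr3 to Fcgr2b was 27.6 to 32.6 in Control and 29.4 to 33.2 in Tumor without Myelin, but 18.3 to 22.5 in Myelin Alone and 20.8 to 25.8 in Full Tumor. The first ratio separated the libraries by tumor material and the second by myelin, with no overlap. How often ratios of other genes do so was not tested. The ratio of Fcgr4 to Fcgr2b did overlap, at 0.786 to 1.48 in Control and 0.586 to 1.32 in Myelin Alone. It was 1.27 to 2.61 in Tumor without Myelin and 1.01 to 1.91 in Full Tumor. All these ratios are made from the same values as the single genes above.

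Fcer1g (ENSMUSG00000058715, chromosome 1, 171229572 to 171234365, minus strand) encodes the chain without which the activating receptors neither signal nor, for most, reach the surface. It was at 1101, 1410 and 1140 CPM in Control, and at 1020, 1468 and 1256 CPM in Myelin Alone (957, 958 and 016). It was at 1166, 1560 and 1250 CPM in Tumor without Myelin and at 1204, 1506 and 1149 CPM in Full Tumor. All groups overlapped, and 958 was the highest number in each of the 4. The pooled tumor effect was 0.08 with an interval of −0.03 to 0.20 (edgeR adjusted p = 0.591 with the block), and the pooled myelin effect 0.00 with an interval of −0.12 to 0.11 (edgeR adjusted p = 0.997 with the block). The interval leaves room for a rise of up to 1.15-fold with tumor material, below the 2.34-fold lower bound of Fcgr1.

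The other genes of the pathway were taken from fixed lists and tested in the same fit, here for the pooled effects with the block. Of all 13414 tested genes, edgeR with the block called 2.25% for tumor material and 0.112% for myelin. DESeq2 with the block called 689 of 20896 and 227 of 22899. Over all tested genes the median log2 fold change was 0.00 for tumor material and 0.01 for myelin, and over the 5 members 0.15 and 0.00. Of the 12 calls these lists gave, 11 were lost without the 4 libraries of 957, 11 without those of 958 and 2 without those of 016, and 1, Fcrls, was kept in all 3 cases. With group only, edgeR called 1 gene of these lists, also Fcrls. Among the proximal kinases 1 of 9 was called with tumor material. It was Lyn, a Src family kinase that phosphorylates both the ITAM and the ITIM, which rose from 165 ± 21.8 CPM in Control to 235 ± 23.1 in Tumor without Myelin and 224 ± 29.6 in Full Tumor (SD, n = 3; pooled log2 fold change 0.47 ± 0.08, edgeR adjusted p = 0.0113 with the block, 0.203 with group only). Syk, the kinase that docks on the phosphorylated ITAM, stood at 166 ± 39.1 CPM in Control and 189 ± 47.4 in Full Tumor and did not pass. The list had a median of 0.09.

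Of 21 adaptors and enzymes below Syk, 1 rose and 1 fell with tumor material, with a median of 0.11. Lcp2, the adaptor SLP-76, rose by a log2 fold change of 0.70 ± 0.09 (edgeR adjusted p = 0.00252 with the block), from 60.5 ± 2.99 CPM in Control to 103 ± 17.6 in Tumor without Myelin (SD, n = 3). Lat, a membrane adaptor best known from T cells, fell by 1.29 ± 0.19 (edgeR adjusted p = 0.00519 with the block), though its level spread widely within groups (19.0 ± 24.3 CPM in Control). In the inhibitory arm 2 of 15 tested genes rose, with a median of 0.07. Inpp5d, the phosphatase SHIP-1 that Fcgr2b recruits, went from 215 ± 44.3 CPM in Control to 330 ± 23.1 in Tumor without Myelin and 327 ± 12.2 in Full Tumor (SD, n = 3; 0.54 ± 0.09, edgeR adjusted p = 0.00932 with the block). Cd72, an ITIM-bearing receptor, rose by 0.31 (edgeR adjusted p = 0.0335 with the block), a call kept in 4 of 12 fits without 1 library. Ptpn6, the tyrosine phosphatase SHP-1, was at 434 ± 16.6 CPM in Control and 424 ± 6.04 in Full Tumor and did not pass.

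With myelin, 2 genes of the inhibitory arm fell and 0 genes of the other pathway lists were called by edgeR with the block. For myelin in edgeR with the block, 1 of 9 kinases and 4 of 21 adaptors had an unadjusted p under 0.05. So did 3 of 15 transcription factors, 3 of 11 interferon-gamma-induced genes and 957 of all 13414 tested genes. DESeq2 with the block called 0 in those 4 lists and 0.991% of all genes. Dok2, an adaptor that restrains tyrosine kinase signalling, fell from 160 ± 15.2 CPM in Control to 96.0 ± 19.5 in Myelin Alone, and was at 145 ± 16.97 in Tumor without Myelin against 106 ± 23.4 in Full Tumor (SD, n = 3). Its pooled myelin effect was −0.61 ± 0.07 (edgeR adjusted p = 0.00547 with the block). Cd72 fell by 0.42 (edgeR adjusted p = 0.042 with the block, kept in 3 of 12 fits without 1 library).

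The machinery around the receptors gave few calls. Of all 13414 tested genes, 1702 had an unadjusted p under 0.05 for tumor material and 957 for myelin in edgeR with the block. Of 12 tested receptors that pair with Fcer1g, such as Clec4e and Csf2rb, 0 were called for either pooled effect, with 1 at an unadjusted p under 0.05 for tumor material and 4 for myelin in edgeR, and 1 and 2 called by DESeq2 with the block. None of 17 genes of phagocytic actin was called by either tool (2 and 0 at an unadjusted p under 0.05), and none of 5 oxidase genes (1 and 2). Among the other ITAM chains 0 of 3 tested were called by either tool, with 0 and 0 at an unadjusted p under 0.05. Tyrobp, the other ITAM chain of macrophages, stood at 1355 ± 228 CPM in Control and 1375 ± 315 in Full Tumor (SD, n = 3). Of the further Fc receptors, 1 of 5 tested was called: Fcrls, an Fc receptor-like gene that is also a microglia marker, rose from 14.8 ± 6.40 CPM in Control and 30.7 ± 4.93 in Myelin Alone to 109 ± 34.8 in Tumor without Myelin and 83.9 ± 26.8 in Full Tumor (pooled log2 fold change 2.15 ± 0.24, edgeR adjusted p = 0.00125 with the block and 0.027 with group only). Fcgrt, the neonatal Fc receptor that recycles IgG, at 88.0 ± 43.6 CPM in Control and 90.0 ± 33.7 in Full Tumor, and Trim21, the cytosolic Fc receptor, at 2.59 ± 0.95 and 3.02 ± 2.05 CPM, did not pass.

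Among 15 transcription factors and interferon receptors linked to these genes, 3 rose and 1 fell with tumor material (median 0.11). Stat2 and Irf9, which act in the response to type I interferon, were among those that rose. Stat2 went from 39.3 ± 5.57 CPM in Control to 99.9 ± 50.7 in Tumor without Myelin (SD, n = 3; log2 fold change 1.20 ± 0.19, edgeR adjusted p = 0.00628 with the block, kept in 12 of 12 but lost without number 957, at 0.154, and without 958, at 0.163). Irf9 went from 69.8 ± 18.2 to 125 ± 40.7 CPM (0.85 ± 0.17, edgeR adjusted p = 0.0224 with the block, kept in 5 of 12). Tfec fell by 0.80 (edgeR adjusted p = 0.0245 with the block, kept in 4 of 12). Spi1 stood at 647 ± 38.5 CPM in Control and 624 ± 107 in Full Tumor, and Irf8 at 250.4 ± 38.2 and 309 ± 23.8 CPM, and neither passed. Of 11 tested genes known to be induced by interferon gamma, 1 was called by edgeR and 4 by DESeq2, both with the block. An unadjusted p under 0.05 in edgeR was found for 5, and the list's median was 0.78. Over all genes with the block, edgeR called 302 of 13414 for tumor material and DESeq2 689 of 20896. An unadjusted p under 0.05 in edgeR was found for 1702 of 13414. None of the 8 tested alternative activation genes of the fixed list was called by either tool with the block (2 at an unadjusted p under 0.05 in edgeR for each pooled effect). Tgm2, which was not on that list and is named below for its likeness to Fcgr1, was called higher with tumor material (log2 fold change 1.02, edgeR adjusted p = 0.000108 with the block).

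**Figure D5:**
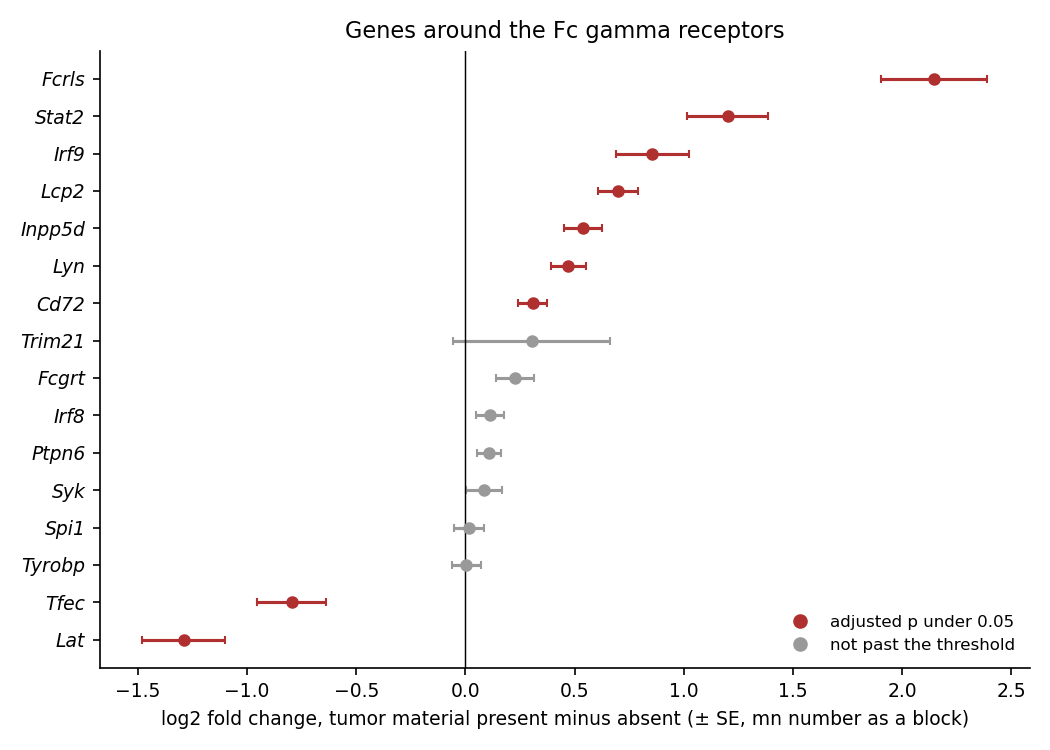
Log2 fold change ± SE for tumor material present minus absent, with the mn number as a block, of the named pathway genes that passed the threshold (red) and of those that did not (grey). Fcrls has the largest rise, at 2.15, and Lat the largest fall, at −1.29, while Tyrobp, Spi1 and Syk lie near 0.

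Some markers of macrophages, the cells sequenced, and of other cell types also moved with tumor material. Over all tested genes, 2.25% were called for the pooled tumor effect in edgeR with the block. Of the 11 macrophage markers 6 were called higher for the pooled tumor effect with the block, and their summed level was 14513 to 19572 CPM in Control, 15149 to 19903 in Myelin Alone, 20315 to 25196 in Tumor without Myelin and 17975 to 24023 in Full Tumor. Of 7 tested microglia markers 4 were called higher, Fcrls among them. The summed level of the list ran from 116 to 291 CPM in Control, 165 to 309 in Myelin Alone, 371 to 482 in Tumor without Myelin and 301 to 410 in Full Tumor. Olfml3 was at 89.3 to 355 CPM over the 12 libraries and Fcrls at 7.65 to 142 CPM, while P2ry12 was at 0 to 3.58 CPM, Tmem119 at 0.604 to 28.4 CPM and Slc2a5 at 0 in 11 libraries. The monocyte list had 1 of 7 called higher, Ccr2, and summed to 14.6 to 138 CPM in Control, 12.97 to 134 in Myelin Alone, 18.3 to 128 in Tumor without Myelin and 57.2 to 95.8 in Full Tumor. The neutrophil list had 1 of 9 tested called, Mpo, which was lower, and summed to 77.4 to 290 CPM in Control, 69.1 to 150.2 in Myelin Alone, 65.0 to 172 in Tumor without Myelin and 44.8 to 159 in Full Tumor. The part of these in the Fcgr1 and Fcgr4 values was not tested. B cells also express Fcgr2b, and 0 of 3 tested B cell markers were called for myelin (0 at an unadjusted p under 0.05 in edgeR, 0 by DESeq2). The summed level of the B cell list was 22.6 to 61.3 CPM in Control and 33.9 to 64.1 in Myelin Alone. It was 9.25 to 58.0 in Tumor without Myelin and 16.0 to 52.2 in Full Tumor. Ms4a1 was at 0 in 11 libraries and Cd79a in 9. Cd22 was at 5.22 to 20.1 CPM, Cd79b at 0.392 to 4.25 CPM and Ighm at 0 to 47.9 CPM. The part of B cells in the Fcgr2b values was not tested.

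Neighbouring genes were compared because Fcgr2b, Fcgr3, Fcgr4 and Fcer1g lie close together on chromosome 1. Within 0.2 Mb of a member, 21 other genes were tested there and 11 around Fcgr1 on chromosome 3. None was called by edgeR with the block for either pooled effect. On chromosome 1, 2 neighbours had an unadjusted p under 0.05 for tumor material and 1 for myelin, and DESeq2 called 1 for each, Nectin4 and Pcp4l1. On chromosome 3 these counts were 0. Of all 13414 tested genes, 1702 and 957 had such a p in edgeR with the block. DESeq2 with the block called 689 of 20896 genes for tumor material and 227 of 22899 for myelin.

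Each member had genes with nearly the same course over the 12 libraries once the mean of each mn number was subtracted, among 9409 genes of at least 5 CPM. For Fcgr1 the closest were Ms4a6b (Pearson r of log2 CPM 0.98), Lpin2 (0.97), Ms4a6c (0.97), Limd2 (0.97) and Tgm2 (0.95). For Fcgr4 they were Slfn9, Nxpe5, Aif1, Dmpk and Cdk20 (r from 0.93 to 0.95), and for Fcgr3 Ehd4, Dck, Themis2, Nr4a1 and Ascc3 (0.94 to 0.98). The 15 genes of these 3 sets were each called higher with tumor material in edgeR with the block, from Ms4a6b at 2.14 to Ehd4 at 0.30 on the log2 scale. Over all tested genes, 2.25% were called. The 15 were picked, in the same libraries, for likeness to members that were higher with tumor material, so their calls are no separate evidence. For Fcgr2b, Msantd3, Spsb4, Tmem87b and Atg5 were among the closest (0.87 to 0.92), of which 0 were called for either pooled effect. For Fcer1g they were Itgb5, Pou2f2, Clta, Lst1 and Sdc3 (0.87 to 0.90), and of these Sdc3 was called higher with tumor material. These values describe likeness over libraries that share groups and depth, were picked as the highest of many and carry no test.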

How the data were processed

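The authors deposited 1 table of raw read counts per gene for 12 libraries, per its header, on mm10, per the submitters' processing notes; no source used here names the aligner, counter, strand setting or read length. All 12 columns of values were matched to samples. Counts were filtered with filterByExpr (13414 genes kept), TMM-normalised and tested with edgeR 4.0.16 quasi-likelihood in R 4.3.3, over all 4 groups, with Benjamini-Hochberg adjustment at 0.05. The main design had group only, and a second had the mn number as a block. The pairing was checked: deviations of same-numbered libraries correlated at 0.120 to 0.631 in 18 of 18 pairs. DESeq2 1.42.0, other filters and scaling, and omission of libraries were alternatives. Floors of 3 counts were 0.142 to 0.182 CPM and cover counting error only. Named genes were the 5 members, list genes past the threshold with the block, a fixed set named whatever its values, and the 5 genes most like each member; some of these are not reported here. Members and lists were chosen with earlier results of these data known. Sequences and exon models came from RefSeq (GRCm38.p6) and GENCODE.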

Additional observations from a re-analysis of the deposited data

Results flagged for a closer look

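For Fcgr2b, the tumor difference had opposite signs with and without myelin, and some of the differences were near 0. Tumor without Myelin was above Control in 3 of 3 mn numbers, by 0.108, 0.028 and 0.002 log2 CPM in 957, 958 and 016. Full Tumor was below Myelin Alone in 3 of 3, with differences of −0.046, −0.131 and −0.004. In 016 these were 45.2 against 45.1 CPM and 51.6 against 51.7 CPM. The second mean log2 CPM difference minus the first was −0.11. Tested as an interaction with the mn number as a block, it was −0.10 with a 95% interval of −0.54 to 0.33 (edgeR adjusted p = 1.00).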

How the results depend on the processing

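Both the block and the tool moved the counts of called genes. With group only, edgeR called 0 genes for each single comparison and the pooled myelin effect and 10 for the pooled tumor effect. With the mn number as a block these were 5 for Myelin Alone against Control, 100 for Tumor without Myelin against Control, 109 for Full Tumor against Control, 0 for Full Tumor against Tumor without Myelin, 15 for Full Tumor against Myelin Alone, 302 for the pooled tumor effect, 15 for the pooled myelin effect and 0 for the interaction. In the same order, DESeq2 with group only called 5, 55, 46, 1, 18, 171, 16 and 0, and DESeq2 with the block 266, 479, 529, 189, 355, 689, 227 and 74. Without the filter, edgeR with group only called 0, 1, 3, 0, 0, 48, 2 and 0, and with the block 20, 188, 178, 5, 89, 414, 48 and 0. With library totals in place of TMM, the pooled tumor effect gave 2 with group only. Leaving out libraries with group only gave 0 to 61 for Tumor without Myelin against Control, 0 to 69 for Full Tumor against Control, 0 to 51 for Full Tumor against Myelin Alone and 0 to 115 for the pooled tumor effect. With the block the ranges were 0 to 9, 4 to 153, 1 to 183, 0 to 1, 0 to 120, 29 to 293 and 0 to 26 in the order above, and 0 for the interaction.

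Changes of sign among the members were seen only for log2 fold changes that missed the threshold. Those of Fcgr1 with myelin went from −0.01 to 0.062 with the block. Over omitted libraries, with group only and then with the block, the ranges were −0.17 to 0.21 and −0.15 to 0.23 for Fcgr1 with myelin, −0.64 to 0.18 and −0.55 to 0.079 for its interaction, −0.082 to 0.056 and −0.045 to 0.021 for Fcer1g with myelin, and −0.060 to 0.031 and −0.065 to 0.036 for Fcgr2b with tumor material. The Fcgr2b interaction with the block ran from −0.21 to 0.015, and Fcgr4 with myelin and group only from −0.32 to 0.15. The cause was not tested.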
